A study of Mus musculus with 2 samples.

Results

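The circadian clock genes described here, 10 core clock and clock output genes, were followed in liver RNA of ortho-toluidine (OTD)-treated and untreated mice. They were chosen by symbol (Arntl, Clock, Npas2, Per1, Per2, Per3, Cry1, Nr1d1, Nr1d2 and Dbp), and all 10 were found among the 15348 listed genes. The OTD group consisted of female NOG-TKm30 mice given the aromatic amine OTD at 0.6% for 1 week and then at 0.3% for 3 weeks, 4 weeks in all, and the control group of female NOG-TKm30 mice given 0%. NOG mice are immunodeficient, and both groups carried the same transgene, a herpes simplex virus thymidine kinase mutant (HSVtk clone 30) that the transthyretin enhancer and promoter, active in hepatocytes, expresses in the liver. All mice were 16 weeks old. One label text names C57BL mice instead, against the strain label and titles. The RNA of 5 OTD mice was pooled for 1 library and that of 3 control mice for the other, so neither group had a replicate. For the route and vehicle of OTD, and for the time of day at which the livers were taken, nothing is given in the sources used here. A difference in that time between the pools was not tested. With 1 library per group it cannot be told apart from OTD.

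The circadian clock of a cell is a transcriptional feedback loop. The factor BMAL1, encoded by Arntl, pairs with CLOCK or NPAS2 and activates the Per, Cry, Nr1d1, Nr1d2 and Dbp genes. PER and CRY proteins repress that activity, and the REV-ERB receptors, encoded by Nr1d1 and Nr1d2, repress Arntl, Npas2 and other genes that ROR receptors activate. In mouse liver the transcripts of most of these genes swing strongly over the day, Arntl in near opposite phase to Nr1d1, and DBP carries the rhythm to metabolic and detoxification genes.

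Nr1d1 was the member that differed most between the pools, 2.57-fold lower in level in the OTD pool. Its relative Nr1d2 and the period gene Per1 were lower by smaller amounts, while Npas2 was somewhat higher and Cry1 was at nearly the same level in both pools. Per3 was higher and Dbp lower in the OTD pool, both at few reads, and the interval for Dbp included no difference. Both REV-ERB genes were lower, while the activators and the period genes each had members on both sides of equal levels.

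All 10 members are protein-coding genes, placed here on GRCm38. Of the activators, Arntl lies on chromosome 7 at 113207465 to 113314126, Clock on chromosome 5 at 76209868 to 76304792 and Npas2 on chromosome 1 at 39193731 to 39363236. Of the repressors, Per1 lies on chromosome 11 at 69095217 to 69109960, Per2 on chromosome 1 at 91415982 to 91459324, Per3 on chromosome 4 at 151003652 to 151044665 and Cry1 on chromosome 10 at 85131700 to 85185064. Nr1d2 lies on chromosome 14 at 18204054 to 18239127, and Nr1d1 and Dbp are placed with their values. Per3 lies inside the span of Camta1 with no shared exon base.

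Promoter sequences are shown for the members whose window held a known clock motif, because the arms of the loop act through these motifs. Windows of 250 bases before to 50 bases after a gene start came from RefSeq on GRCm38.p6 and were present for 9 of the 10 members, with 13 starts in all. Arntl and Per1 had 2 starts each and Clock had 3, and for these genes the window with the most matches was taken, so their windows were picked for their matches. Searched on both strands were the E-box CACGTG and its variant CACGTT (called E-prime box), which BMAL1 complexes bind, the D-box TTATGTAA, which DBP and its relatives bind, and TAGGTCA, the core of the element that ROR and REV-ERB share. Capitals mark the matches, and no match overlapped another.
Nr1d1 promoter, chr11:98775328-98775627, minus strand: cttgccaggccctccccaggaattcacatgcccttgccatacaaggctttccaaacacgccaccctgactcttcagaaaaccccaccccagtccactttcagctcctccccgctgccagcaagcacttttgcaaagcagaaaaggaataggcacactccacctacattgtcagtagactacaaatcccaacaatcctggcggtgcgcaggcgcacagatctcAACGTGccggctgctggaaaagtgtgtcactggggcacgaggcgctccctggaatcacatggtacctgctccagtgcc
Arntl promoter, chr7:113207261-113207560, plus strand: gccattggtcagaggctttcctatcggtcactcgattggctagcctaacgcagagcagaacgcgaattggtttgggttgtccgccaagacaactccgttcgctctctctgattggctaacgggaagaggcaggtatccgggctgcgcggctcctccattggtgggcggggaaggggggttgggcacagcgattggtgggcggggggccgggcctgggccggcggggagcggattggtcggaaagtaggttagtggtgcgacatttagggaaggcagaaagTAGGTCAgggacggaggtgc
Cry1 promoter, chr10:85185005-85185304, minus strand: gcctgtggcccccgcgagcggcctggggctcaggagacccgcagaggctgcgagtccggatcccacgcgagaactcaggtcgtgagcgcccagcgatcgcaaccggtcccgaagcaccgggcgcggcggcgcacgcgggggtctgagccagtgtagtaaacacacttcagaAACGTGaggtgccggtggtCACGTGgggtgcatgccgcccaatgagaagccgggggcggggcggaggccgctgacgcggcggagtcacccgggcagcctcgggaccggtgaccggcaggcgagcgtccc
Per1 promoter, chr11:69098699-69098998, plus strand: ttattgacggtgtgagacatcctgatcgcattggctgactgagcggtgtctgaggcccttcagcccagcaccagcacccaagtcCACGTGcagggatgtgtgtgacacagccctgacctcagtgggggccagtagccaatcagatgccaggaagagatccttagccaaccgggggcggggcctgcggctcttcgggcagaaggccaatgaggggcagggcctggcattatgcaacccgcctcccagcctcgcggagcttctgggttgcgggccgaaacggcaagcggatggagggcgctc
Per3 promoter, chr4:151044616-151044915, minus strand: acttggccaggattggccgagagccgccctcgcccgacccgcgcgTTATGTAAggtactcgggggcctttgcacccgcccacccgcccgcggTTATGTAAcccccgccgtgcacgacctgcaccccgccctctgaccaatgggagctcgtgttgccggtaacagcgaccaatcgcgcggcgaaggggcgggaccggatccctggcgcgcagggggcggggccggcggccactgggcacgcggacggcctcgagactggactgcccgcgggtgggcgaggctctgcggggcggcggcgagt

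The Nr1d1 window held 1 E-prime box at position -28 from the start, read on the opposite strand. The Arntl window held 1 ROR element at position 31, the Per1 window 1 E-box at -166, and the Cry1 window an E-prime box at -79 on the opposite strand and an E-box at -60. The Per3 window held 2 D-boxes, at -205 and -158. The other window of Arntl and that of Per1 held no match. Of 32851 promoter windows of the same length, 7.15% held the E-box, 4.68% the E-prime box, 0.938% the D-box and 2.61% the ROR element. These shares count every window, with no such choice among starts, and so cannot be set against the picked windows of Arntl and Per1. The windows of Clock (all 3), Npas2, Nr1d2 and Dbp held none of these letters. The map of motif positions sets these matches side by side. A match describes the letters only and was not measured as a bound site.

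**Figure D1:**
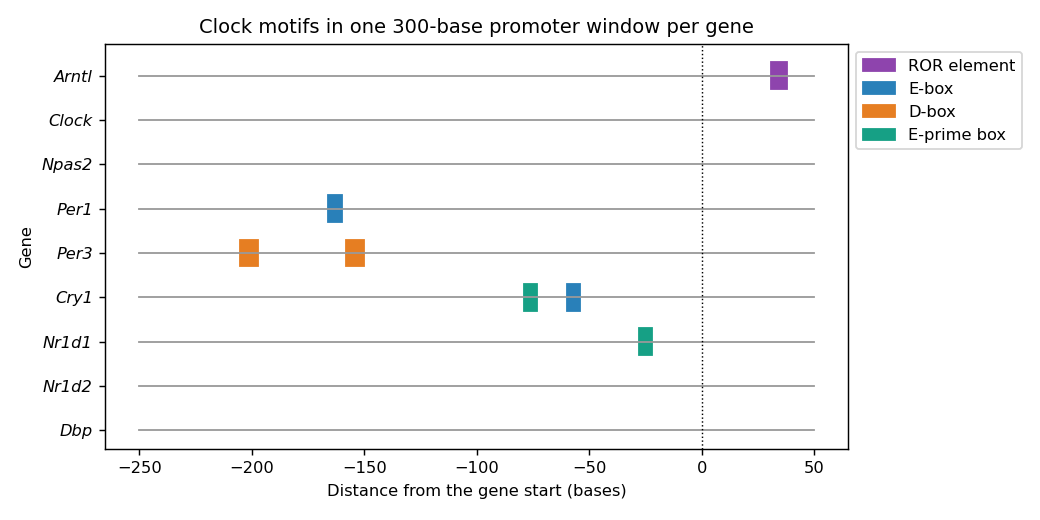
Positions of 4 clock motifs (coloured boxes, widths to scale) in 1 promoter window per gene, as distance in bases from the gene start (dotted line) for 9 members, the window with the most matches where a gene had several. Per3 carries 2 D-boxes, Cry1 an E-prime box and an E-box, and Arntl, Per1 and Nr1d1 carry 1 motif each.

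The OTD library held 14685193 reads over the listed genes and the control library 13569189. The members took 4293 reads (0.0292%) in the OTD library and 4549 reads (0.0335%) in the control library. Levels are the deposited signal, in which 1 read counts 0.0668 in the OTD library and 0.0751 in the control library, close to CPM (scaled CPM). All intervals are at 95% and reflect the counting of reads alone, since variation from mouse to mouse, pool to pool or preparation to preparation was not measured. No p-value can be given, because no group had a second library. Of 10 hepatocyte markers, used to check the labelled tissue, all 10 were present, led by albumin (Alb) at 7.10% of OTD reads and 8.01% of control reads. Summed marker levels were 114332 in OTD and 130202 in control for hepatocytes, a ratio of 0.878. For the 11 Kupffer cell markers this ratio was 0.923, for the 9 endothelial ones 0.942, for the 9 of stellate cells 0.974, for the 6 of cholangiocytes 0.935 and for the 5 erythroid ones 1.246. These sums follow the most abundant markers, such as Alb at 69694 in OTD and 81661 in control. Of the 8 stellate markers with a mean level of at least 10, the interval included 1 for 5. It lay above 1 for 1, Col3a1 (1.26, 1.12 to 1.43), and below 1 for 2, Lrat (0.764, 0.664 to 0.880) and Dcn (0.899, 0.853 to 0.947). Of the cholangiocyte markers, Spp1 (0.941) and Sox9 (0.824) were below 1. The others, at 30 reads or fewer, were above 1, with Krt7 at 2.31 (1.08 to 5.37). Hba-a2 had a ratio of 1.76, while the other erythroid markers ranged from 0.889 to 1.07. Of 9 leukocyte markers, 5 were analysed, and they summed to 11.6 in OTD and 9.02 in control. None of the markers analysed was at 0 in either library. The precursor ribosomal RNA Rn45s took 2.66% of OTD reads and 1.47% of control reads. The part of cell makeup and of ribosomal RNA in the clock values was not tested, and in whole liver fewer cells of a type and less RNA per cell cannot be told apart.

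A gene was called measured at a mean level of both libraries of at least 10, and counted as higher or lower when the log2 ratio of OTD over control (pseudocount 1) was at least 1 in size. Of the 10 members, 7 were measured, and each of them was above 10 in both libraries. Per2, Per3 and Dbp were below that mean. Of the 7 measured members, 1 (Nr1d1) passed 2-fold as lower in the OTD pool and 0 passed it as higher. Of all 7602 measured genes, 0.210% were at least 2-fold lower and also 0.210% at least 2-fold higher. The median log2 ratio of the 7 was -0.23, with 2 above 0 and 5 below, beside -0.0063 over all measured genes. The counting interval of the ratio lay below 1 for 4 of the 7 members, against 19.6% of all measured genes, and above 1 for 1 member, against 18.6%. In reads alone, then, 38.2% of measured genes differed beyond counting error between these pools, so an interval that leaves out 1 is common here.

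**Figure D2:**
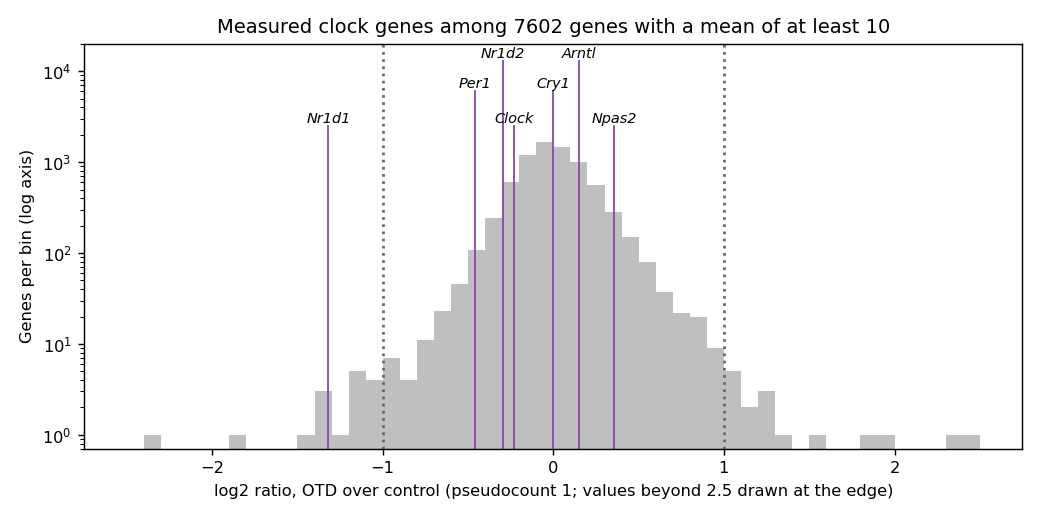
Distribution of the log2 ratio of OTD over control across 7602 measured genes (grey bars, log count axis) with the 7 measured clock members as purple lines and the 2-fold limits dotted. Nr1d1 alone among the members lies past a limit, at -1.32, and the other 6 lie between -0.46 and 0.36.

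Among the activators, Npas2 was higher, Clock lower, and Arntl only slightly higher. Arntl, whose product BMAL1 is the shared partner of the activator pair, had a level of 40.2 in the OTD pool and 36.1 in the control pool (602 reads in OTD and 480 in control). Its ratio of 1.12 had an interval of 0.987 to 1.26, which includes 1, so a difference was not detectable at this depth. Clock, the main BMAL1 partner in many tissues, stood at 100.5 in OTD and 118.1 in control, a ratio of 0.851 (0.792 to 0.914). That interval lies below 1. Npas2, which can take the place of CLOCK, stood at 21.6 in OTD and 16.7 in control, a ratio of 1.30 (1.09 to 1.55). The partners of BMAL1 therefore differed in opposite directions, with Npas2 at rank 436 from the highest log2 ratio among 7602 genes and Clock at rank 827 from the lowest. Summed over the 3 activators, the level was 162.3 in OTD and 170.8 in control, a ratio of 0.9501 (0.897 to 1.01).

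The period genes, whose proteins repress BMAL1 complexes, were split. Per1 had a level of 26.1 in the OTD pool (391 reads) and 36.3 in the control pool (483 reads), 1.39-fold lower (1.21 to 1.59). It ranked 143 from the lowest log2 ratio of the measured genes, at -0.46, short of 2-fold. Per2 stood at 4.68 in OTD and 4.13 in control (70 reads in OTD and 55 in control), and its ratio of 1.13 (0.784 to 1.64) left no detectable difference at this depth. Per3, the period gene that mice can lose with little effect on the rhythm, stood at 3.34 in OTD and 1.73 in control. These levels rested on 50 reads in OTD and 23 in control, with a ratio of 1.93 (1.16 to 3.32). On the log2 scale with the pseudocount Per3 was 0.67 higher, past 1.5-fold, as were 2.74% of the 11956 genes with a mean of at least 1, while Nr1d1 alone of the 9 members in that range was past 1.5-fold lower, against 1.33%. Per1 and Per3 thus differed in opposite directions. The summed period level was 34.1 in OTD and 42.1 in control, a ratio of 0.810 (0.717 to 0.915).

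Cry1, the cryptochrome that acts as a strong repressor of BMAL1 complexes, had a level of 33.7 in both pools (504 reads in OTD and 449 in control). Its ratio of 0.998 had an interval of 0.877 to 1.14, centred close to equal levels. Its log2 ratio of -0.0027 turned to 0.068 under scaling to the same total without Rn45s.

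Both REV-ERB genes were lower in the OTD pool, Nr1d1 by far more than Nr1d2. Nr1d1, which encodes REV-ERB alpha, a heme-binding repressor, had a level of 18.5 in the OTD pool (277 reads) and 47.6 in the control pool (634 reads). The Poisson intervals of these levels, 16.4 to 20.8 in OTD and 44.0 to 51.5 in control, were far apart. The difference was 2.57-fold lower (2.23 to 2.98), a log2 ratio of -1.32, and ranked 5 from the lowest of 7602 measured genes. Nr1d2, which encodes REV-ERB beta, stood at 37.5 in OTD and 46.3 in control (562 reads in OTD and 616 in control), 1.23-fold lower (1.10 to 1.38). The pair thus had nearly the same number of reads in the control library, while in the OTD library Nr1d2 had more reads than Nr1d1.

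Nr1d1 lies on chromosome 11 at 98767932 to 98775333 of GRCm38, on the minus strand, and is protein-coding. Its 3′ end overlaps that of Thra, the thyroid hormone receptor alpha gene on the plus strand, over 263 exon bases of 3077. The library kit keeps strand, but whether counting used it is not given in the sources used here. Thra had a level of 12.4 in OTD and 14.3 in control, a ratio of 0.866 (0.704 to 1.07). The difference in Nr1d1 level, OTD minus control, was -29.1. How reads in the overlap were assigned was not tested, and the Thra level depends on that assignment too. When reads of both genes were summed, an alternative chosen after the values were seen, the level was 30.9 in OTD and 62.0 in control, a ratio of 0.499 (0.444 to 0.560), and the log2 ratio of -0.98 was just short of 2-fold on the pseudocount scale. No 50-base stretch of the longest Nr1d1 transcript occurred in another transcript on the same strand, whereas 6.003% of those of Nr1d2 did.

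The output factor Dbp, a PAR bZIP activator of liver enzyme genes and one of the most rhythmic liver transcripts, had a level of 0.601 in the OTD pool and 1.13 in the control pool. These rested on 9 reads in OTD and 15 in control, above a fixed floor of 3 reads. The ratio of 0.533 had an interval of 0.206 to 1.30, from 4.86-fold lower to 1.30-fold higher, so a difference was not detectable at this depth. Dbp, on chromosome 7 at 45705088 to 45710203, overlaps Sphk2 on the opposite strand over 539 exon bases. Sphk2, a sphingosine kinase gene, had 689 reads in OTD and 468 in control, a ratio of 1.31 (1.16 to 1.48), in the other direction from Dbp.

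**Figure D3:**
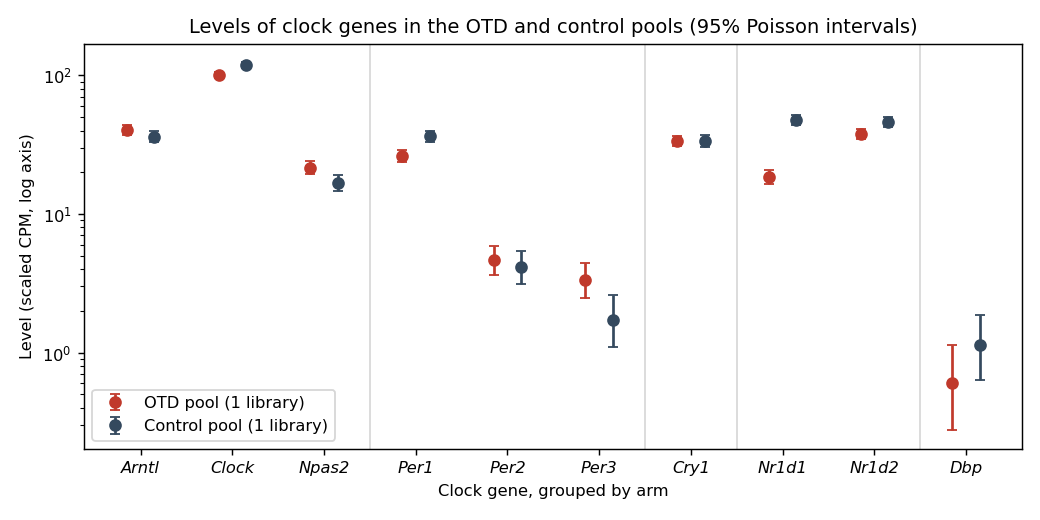
Level of each clock member in the OTD pool (red, left of each pair) and the control pool (dark, right), in scaled CPM on a log axis with 95% Poisson intervals, 1 library each. Nr1d1 stands at 18.5 in OTD and 47.6 in control, whereas Cry1 stands at 33.7 in both.

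Per kilobase of the longest annotated transcript, a rough scale for comparing levels of different genes, Nr1d1 was the highest member in the control pool and the fifth in the OTD pool. Which transcript of each gene was expressed was not tested, and the intervals given here do not cover the choice of length. It stood at 6.80 scaled CPM per kilobase in OTD and 17.5 in control. In the OTD pool the order was led by Cry1 at 11.1, Clock at 10.3 and Arntl at 10.1, whose neighbouring intervals overlapped. Nr1d2 at 8.05, Nr1d1, Per1 at 5.59 and Npas2 at 5.11 followed, again with overlapping neighbours. In the control pool Nr1d1 was followed, beyond its interval, by Clock at 12.1, Cry1 at 11.1, Nr1d2 at 9.92 and Arntl at 9.03, and then by Per1 at 7.77 and Npas2 at 3.94. Neighbours from Clock to Per1 in that order overlapped, and Npas2 lay below Per1 beyond its interval. Per2 at 0.802 in OTD and 0.708 in control, Per3 at 0.557 in OTD and 0.288 in control, and Dbp at 0.327 in OTD and 0.613 in control were the lowest in both pools. Neighbours among Per2, Per3 and Dbp overlapped in each pool, with Dbp last in OTD and Per3 last in control.

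Ratios of reads between members of the same library do not depend on how the libraries were scaled to each other. There were 0.460 reads of Nr1d1 per read of Arntl in the OTD library and 1.32 in the control library, a quotient of 0.349 (0.288 to 0.421). Against its relative Nr1d2, Nr1d1 had 0.493 reads in OTD and 1.03 in control, a quotient of 0.479 (0.398 to 0.577). Nr1d1 was thus lower in OTD against a gene it represses and against its own paralog. Npas2 per read of Clock was 0.215 in OTD and 0.141 in control, a quotient of 1.53 (1.26 to 1.84). Per1 per read of Per2 was 5.59 in OTD and 8.78 in control, with a quotient of 0.636 (0.427 to 0.944). Quotients for Cry1 to Arntl (0.895, 0.749 to 1.07) and Per2 to Arntl (1.01, 0.688 to 1.503) included 1. Per3 to Arntl had a quotient of 1.73 (1.02 to 3.02), while those of Dbp to Arntl (0.479, 0.183 to 1.18) and Nr1d1 to Dbp (0.728, 0.295 to 1.91) were too wide to place on either side of 1.

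**Figure D4:**
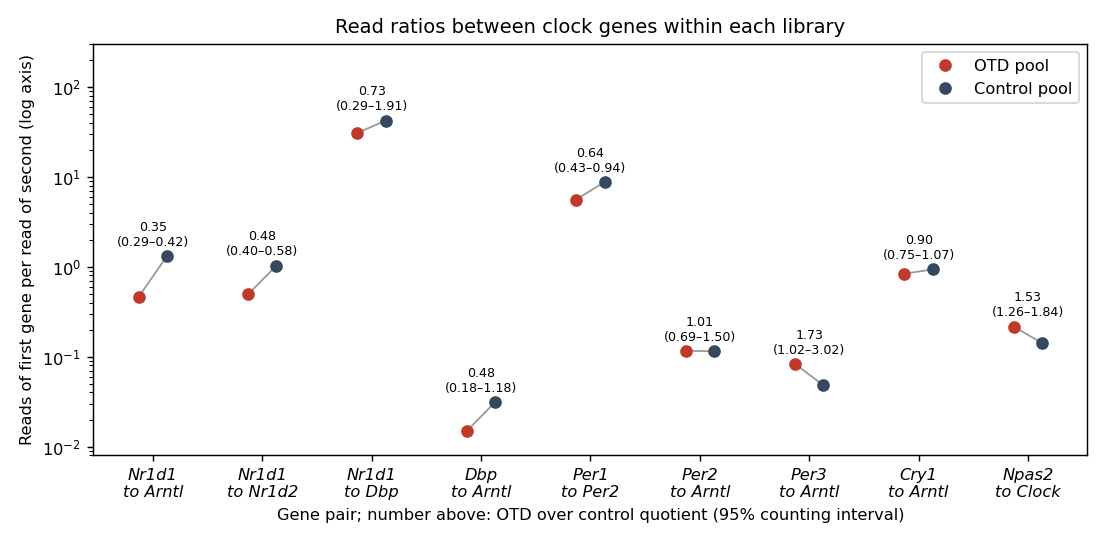
Reads of the first gene per read of the second for 9 pairs of clock members, in the OTD library (red, left) and the control library (dark, right), on a log axis. The number above each pair is the OTD over control quotient with its 95% counting interval, lowest at 0.349 for Nr1d1 to Arntl.

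Of 18 other clock factors and regulators, 16 were analysed (Rorb and Noct were not analysed here) and 10 were measured. None of the 10 was at least 2-fold higher or lower, 5 log2 ratios were above 0 and 5 below, and their median was 0.017. Cry2, the second cryptochrome, stood at 30.6 in OTD and 21.6 in control, a ratio of 1.42 (1.22 to 1.65), against the equal levels of Cry1. Rora, an activator at ROR elements, stood at 193.3 in OTD and 227.6 in control, a ratio of 0.849 (0.807 to 0.894). The D-box activators Tef and Hlf, relatives of Dbp, had ratios of 1.04 (0.912 to 1.19) and 0.866 (0.755 to 0.994). Unlike Dbp, both were above the measured mean, Tef at 32.3 in OTD and 31.0 in control and Hlf at 27.9 in OTD and 32.2 in control. Usp2, a clock-controlled deubiquitinase gene, stood at 2.94 in OTD and 5.41 in control, a ratio of 0.543 (0.365 to 0.802) at 44 reads in OTD and 72 in control. The other genes with the largest log2 ratios were Btrc (1.18, 0.956 to 1.45) and 4 low genes, Fbxl21 (1.63, 1.07 to 2.52), Timeless (1.38, 0.833 to 2.33), Csnk1e (1.23, 0.919 to 1.65) and Bhlhe41 (2 reads in OTD and 6 in control).

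**Figure D5:**
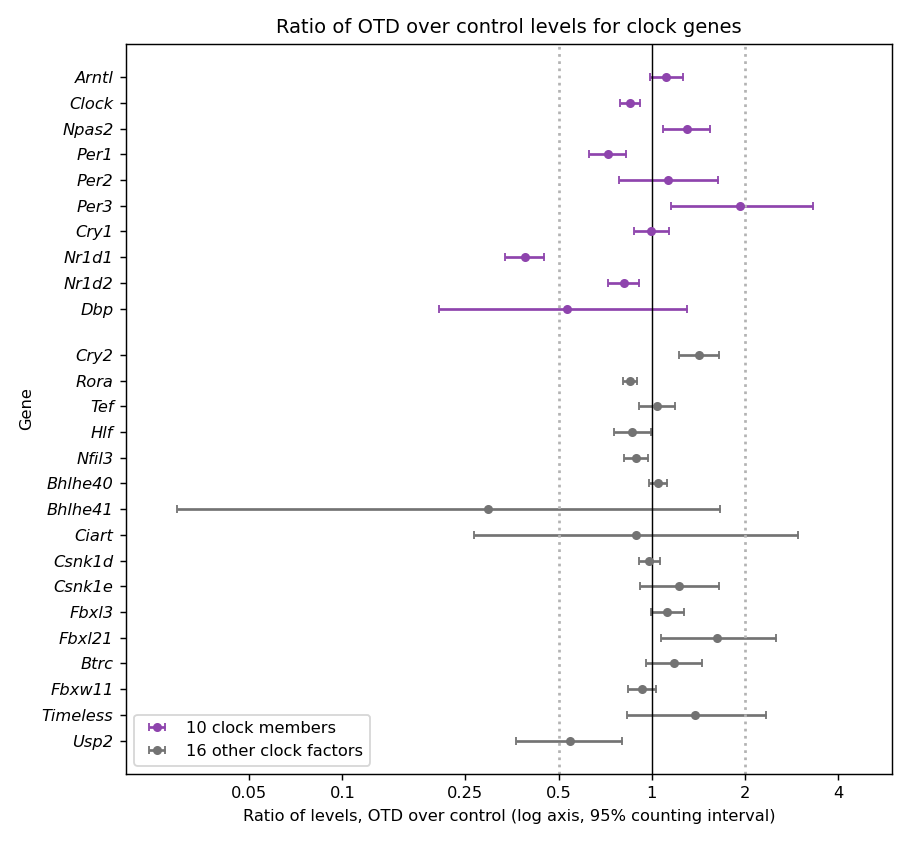
Ratio of OTD over control levels with 95% counting intervals (log axis) for the 10 clock members (purple) and 16 other clock factors (grey), with ratios of 0.5 and 2 dotted. Nr1d1 at 0.388 is the only gene whose whole interval lies below 0.5.

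Groups of genes placed by the regulator that acts on them did not differ in one direction. Of 5 genes that REV-ERB represses and ROR activates, all measured, 2 log2 ratios were above 0 and 3 below, with a median of -0.0027, the value of Cry1, and 0 past 2-fold. Npas2 and Arntl had the highest ratios of that group, and Clock and Nfil3 the lowest, Nfil3 with 0.891 (0.816 to 0.973). Of 15 genes that BMAL1 complexes activate, 8 were measured, 4 above 0 and 4 below, with a median of 0.027, and Nr1d1 alone was at least 2-fold lower. Nampt, the rate-limiting enzyme of NAD salvage, stood at 67.9 in OTD and 50.1 in control, a ratio of 1.36 (1.23 to 1.497). The cell cycle kinase gene Wee1, below the measured mean, had 61 reads in OTD and 26 in control, a ratio of 2.09 (1.30 to 3.44). Genes of each group thus stood on both sides of 1, and Cry1 belongs to both groups. Arntl, Clock, Npas2 and Cry1 of the first group are clock members already described. So are Per1, Cry1, Nr1d1 and Nr1d2 among the measured genes of the second. The counts of both groups therefore repeat values given above in part.

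Of 9 liver genes known to depend on DBP, TEF and HLF in mice, 1 was at least 2-fold higher, Cyp2b10 (ratio 5.29). At least 2-fold lower were 2, Cyp4a10 (0.375) and Cyp4a14 (0.201). Over all measured genes the shares were 0.210% higher and 0.210% lower. This list was chosen with earlier results of these data known, so its counts cannot be set against those shares. The median log2 ratio of the 9 was -0.25, with 3 above 0 and 6 below. Nr1i3, which encodes the receptor CAR, had a ratio of 0.741 (0.683 to 0.803). Of 11 liver genes with a known daily rhythm, 9 were measured and 0 passed 2-fold, with a median of -0.046. Lpin1, a phosphatidate phosphatase gene, had a ratio of 0.662 (0.639 to 0.685), and the cell cycle inhibitor gene Cdkn1a, a REV-ERB alpha target in mouse liver, 0.738 (0.684 to 0.797).

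With 2 libraries no pattern across samples can be compared, so the genes most like Nr1d1 were taken as the 4 measured genes with the nearest log2 ratio. They were Mup17 (-1.30), A1bg (-1.35), Cyp4a10 (-1.41) and Mup1 (-1.22), at ranks 6, 4, 3 and 7 from the lowest. Each had more reads than Nr1d1, with levels of 268.3 in OTD and 663.2 in control for Mup17 and of 116.2 in OTD and 298.0 in control for A1bg.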

How the data were processed

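Liver RNA was extracted with a column kit, depleted of ribosomal RNA and made into strand-keeping (directional) libraries, per the labels' protocols. The authors deposited 1 table of a normalized signal per gene symbol for the OTD and control pools. The submitters' processing notes name the mm10 build and the tools edgeR, RSEM, Bowtie2 and Trimmomatic 0.38 without saying what each did. How genes were filtered, and whether strand was used in counting, is not given in these sources. Both column names include an unexplained word, Wild, and were matched to the groups by Ctrl and OTD.

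Divided by the column's smallest step, 100% of values in each column came out whole (tolerance 1e-06), which gave back the reads. The deposited signal behaves as CPM divided by a scaling factor of 1.02 for OTD and 0.981 for control. Ratios have Clopper-Pearson intervals from how reads split between libraries, levels Poisson intervals and quotients exact conditional odds ratio intervals, all at 95%. No count model was run on the recovered reads, because 2 libraries leave no residual degree of freedom. Coordinates and transcript lengths came from GENCODE M21 on GRCm38, which matched 96.0% of symbols, and sharing was checked over 50-base stretches. The members, gene lists and motifs were chosen with earlier results of these data known. Named were all 10 members, the 8 other clock factors with the largest absolute log2 ratio, up to 4 genes of each list, overlapping genes and the 4 genes nearest to the member with the largest ratio. Tef and Hlf were named outside this rule with their values known, and 1 gene is not reported here. The method was tested on simulated Poisson reads, the same counting model that the intervals assume. They held no variation between mice, pools or preparations, so the test does not bear on such variation. Alternatives were other pseudocounts, scalings, minimum means and fold thresholds. Computation used scipy 1.17.1, numpy 2.4.6, pandas 2.3.3 and matplotlib 3.10.9 under Python 3.11.15.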

Additional observations from a re-analysis of the deposited data

How the results depend on the processing

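No paired analysis was possible because each group had 1 library, and leaving out a library leaves no comparison. The count of 1 member at least 2-fold lower (Nr1d1) held under pseudocounts of 0.5 and 10, 4 other scalings, a mean of at least 1 or no filter, and at 1.5-fold. It became 0 at 3-fold, where the threshold itself differed, and 0 at a mean of at least 50, where Clock alone entered. The count of higher members was 0 under each of these alternatives. The median log2 ratio of the members (-0.23) ranged from -0.24 to -0.16 under the pseudocounts and scalings, and was -0.12 over all 10 without a filter and -0.0027 over 9 at a mean of at least 1. The log2 ratio of Nr1d1 ranged from -1.34 to -1.02 (pseudocount of 10), and was -0.98 when summed with Thra, an alternative chosen after the data were seen. Dbp summed with Sphk2, also chosen after the data were seen, gave 0.35, with Sphk2 alone at 0.38. Cry1 alone among the members had either sign under the scalings. The scalings moved the median of all measured genes by at most 0.071. Of 62 values of members under alternatives, 60 stayed within the gene's own counting error, and the other 2 were those of Nr1d1 at a pseudocount of 10 and with Thra. That limit is wide for Per2, Per3 and Dbp, so the count says little about how stable they are. The 60 include Per3 at a pseudocount of 10, which moved from 0.67 to 0.19. They also include Dbp summed with Sphk2, which changed sign from -0.41 to 0.35. Depth limits Per2, Per3 and Dbp, whose 9 to 70 reads leave upper bounds more than 2 times the lower bounds.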

Other observations

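Genes that respond to glucocorticoid or body temperature, cues that also reach the liver clock, showed no common direction. Of 10 such genes, 9 were measured, 3 with a log2 ratio above 0 and 6 below, with a median of -0.036 and 0 past 2-fold. Fkbp5, a glucocorticoid-induced gene, stood at 58.0 in OTD and 78.1 in control, a ratio of 0.743 (0.678 to 0.814), whereas Tat, also glucocorticoid-induced, had a ratio of 1.07 (1.05 to 1.09). The heat shock gene Hsph1 had a ratio of 0.742 (0.690 to 0.797). The cold-inducible gene Cirbp, below the measured mean at 119 reads in OTD and 76 in control, had a ratio of 1.39 (1.04 to 1.88). Hsph1 and Cirbp were the temperature-responsive genes furthest from 1. Of the 9 measured genes, the interval lay above 1 for 1, below 1 for 3 and included 1 for 5.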
